A study of Mus musculus with 12 samples.

Results

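The 41 genes described here encode the enzymes that remove or add methyl groups on histone H3, above all on lysine 4, together with the subunits that the lysine 4 methyltransferases share. They were listed by name, as the histone demethylases and Jumonji proteins (22 genes) and the lysine 4 methyltransferases with their complex subunits and related SET domain proteins (19 genes), out of 55487 gene identifiers. All 41 passed the filter on low counts in both comparisons. RNA was sequenced from mouse OT-1 CD8+ T cells, whose transgenic T cell receptor recognises ovalbumin, in 4 groups of 3 samples. Female and Male held splenic cells of each sex, activated with beads against CD3 and CD28 plus recombinant IL2 for 3 days. WT and KD came from a separate batch of male cells that was electroporated and kept in culture for 3 days, with IL2 in the medium as in every group. KD received Cas9 and a guide RNA to reduce Kdm5d, the Y-linked H3K4 demethylase. WT received guide RNA and no Cas9, so that Cas9 exposure and the knockdown cannot be told apart. In the same way the sexes differ in all genes of the X and Y chromosomes as well as in Kdm5d. The age and strain background of the mice, the purity of the cells, the guide sequence and the number of mice behind the samples are not given in the sources used here. The p-values therefore measure the spread between these samples, which may be technical.

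Methylation of H3 lysine 4 marks active promoters in its trimethylated form and enhancers in its monomethylated form. The KDM5 demethylases remove the tri- and dimethyl states, and LSD1 (Kdm1a) removes the mono- and dimethyl states. The KMT2 and SETD1 enzymes write the mark inside COMPASS-type complexes, which share the subunits WDR5, RBBP5, ASH2L and DPY30. In T cells these enzymes take part in activation, in effector and memory differentiation and in exhaustion. Several of the genes are sex-linked in the mouse: Kdm5c and Kdm6a escape X inactivation and have the Y-linked relatives Kdm5d and Uty.

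Total counts were 78748647 to 110803318 per sample, and the 41 genes together took 0.587% to 0.635% of them in Female, 0.520% to 0.525% in Male, 0.506% to 0.511% in WT and 0.491% to 0.499% in KD. Levels are given as counts per 1000000 counts of a library (CPM), with library sizes scaled by the TMM method of edgeR. A gene was called changed at an adjusted p under 0.05 in edgeR's quasi-likelihood test, fitted over all genes that passed the filter and adjusted over all of them by the Benjamini-Hochberg method. All adjusted p below come from that test. Values with length and GC trends removed come from the same test after trends of each sample's level with exon length and transcript GC content were taken out, an alternative chosen after seeing the data, and a value followed by its SE or adjusted p is a log2 fold change. Fold changes are Female over Male and KD over WT, so that in both the group with less Kdm5d is compared with the group with more. The 7 listed CD8 T cell genes summed to 2253 to 2273 CPM in Female, 2137 to 2168 in Male, 2596 to 2641 in WT and 2307 to 2358 in KD. Of 14 marker genes of other cell types, 12 were under 1 CPM on average in each group, and the B cell marker Ms4a1 and the erythroid markers Hbb-bs and Hba-a1 had no counts in any sample. The summed level of the 14 was 46.2 to 49.0 CPM in Female, 43.0 to 44.0 in Male, 43.0 to 46.7 in WT and 35.99 to 38.1 in KD, most of it from the adhesion molecule gene Pecam1. Of the 14, 5 passed the filter in the sex comparison and 3 were called, with log2 fold changes of the tested ones from -0.94 to 7.07. In the knockdown 7 passed and 3 were called, from -0.48 to 2.70. Over all genes 50.4% and 36.3% were called. Cd4, Lyz2, Itgam and Flt3 had no counts in Male and some in Female. The part of these shifts in the results was not tested. In bulk RNA, fewer cells with a transcript and less transcript per cell cannot be told apart.

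Most of these genes differed in both comparisons, by small amounts. Between the sexes 31 of the 41 were called, 24 higher and 7 lower in Female. Of all 20208 genes tested, 50.4% were called, 26.6% higher and 23.8% lower. In the knockdown 29 of the 41 were called, 10 higher and 19 lower in KD. Of all 20413 genes tested there, 36.3% were called, 17.4% higher and 19% lower. The listed genes are more abundant than most, and among genes at or above the mean level of the lowest of them 76.7% of 9040 were called between the sexes (41.5% higher, 35.2% lower) and 60.8% of 8183 in the knockdown (25.5% higher, 35.3% lower). The shares called, 75.6% and 70.7% of the 41, are thus near or moderately above those of genes past that floor. Such genes are not a set matched to the 41 in abundance. Their median change on the log2 scale was 0.13 in Female over Male and -0.054 in KD over WT, against -0.011 and 0.012 over all genes. The balance in KD depended on scaling: with upper-quartile factors 3358 of all genes were lower and 4092 higher, against 3872 and 3543, and the median of the 41 was -0.023, with 15 lower and 11 higher. Of the 41, 21 and 8 were called with a change of at least 1.2-fold, against backgrounds of 36.5% and 20.8%. Kdm5d was the 1 gene past 2-fold in each comparison, against backgrounds of 7.31% and 4.01%. Without it, the largest changes were Kdm6a, 1.95-fold higher in Female, and Jarid2, 1.71-fold lower in KD. The groups did not overlap for 32 of the 41 genes in either comparison, against 58.3% and 46.8% of all genes tested.

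**Figure D1:**
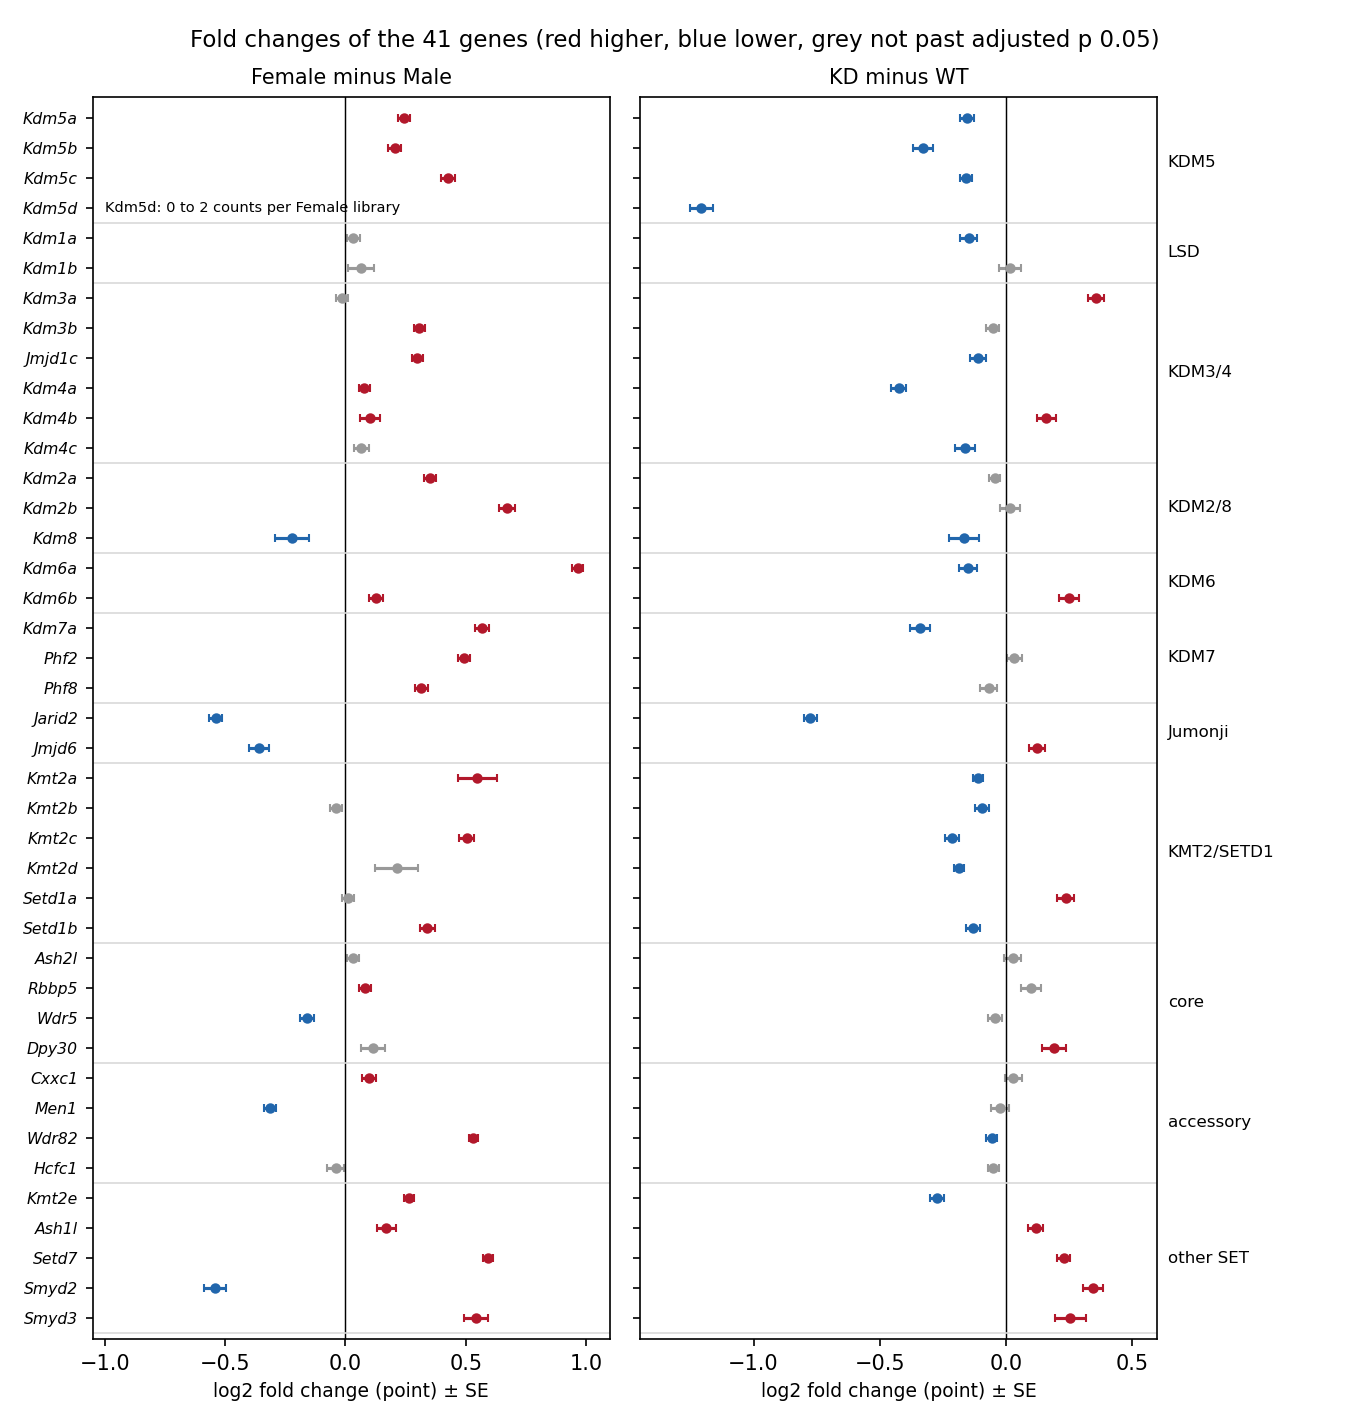
Log2 fold changes of the 41 genes in Female over Male (left) and KD over WT (right), with points for the estimates, bars for ± SE and 3 samples a group, ordered by family. Kdm5d is given in words on the left because the Female libraries held 0 to 2 counts. In the left panel 24 genes are called higher and in the right panel 19 are called lower.

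In the KDM5 family of H3K4 demethylases, the autosomal Kdm5a and Kdm5b and the X-linked Kdm5c were higher in Female than in Male, the call of Kdm5b only without removal of length and GC trends. In KD all 4 family members, Kdm5d included, were lower than in WT. Of all genes tested, 26.6% were higher in Female and 19% lower in KD. Among those at or above the lowest mean level of the 41 genes, these shares were 41.5% and 35.3%. The genes lie in GRCm38 at chr6:120364124-120444574 (Kdm5a), chr1:134560171-134635285 (Kdm5b), chrX:152233020-152274535 (Kdm5c) and chrY:897788-956786 (Kdm5d), all on the plus strand. Kdm5d, the target of the knockdown, was at 50.9, 49.5 and 52.2 CPM in the Male samples, 48.4, 51.9 and 52.4 in the WT and 21.4, 21.8 and 22.9 in the KD samples. The KD libraries all lay far below the WT libraries and well above zero. The KD mean was 43.3% of the WT mean, with a log2 fold change of -1.21 (SE 0.046, adjusted p 2.51e-11). The exact two-sided permutation test gave p = 0.1, the smallest that 3 against 3 samples allow. The Female libraries held 2 counts of Kdm5d in total, which puts Male at least 1554-fold higher if each Female library is given 3 counts, a floor that covers counting error only. How reads were turned into counts is not given in the sources used here, and the bound would be too high if 1 read gave more than 1 count.

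Kdm5a, which also reads the unmodified H3 tail through a PHD finger, was at 190.4, 199 and 197 CPM in the Female samples, 165, 162 and 169 in the Male, 141, 142 and 140.0 in the WT and 122, 128 and 130.3 in the KD samples. Each Female library exceeded each Male library and each KD library lay below each WT library, with log2 fold changes of 0.24 (SE 0.025, adjusted p 6.56e-07) and -0.16 (SE 0.028, adjusted p 0.000344). Its value in Female was 0.11 (adjusted p 0.000803) with length and GC trends removed. Kdm5b, the family member known for its role in cell proliferation, was at 66.5, 66.8 and 66.6 CPM in the Female samples, 58.2, 57.6 and 57.6 in the Male, 44.4, 42.4 and 44.1 in the WT and 34.8, 33.9 and 35.6 in the KD samples. Its groups were again fully separated in both comparisons, with log2 fold changes of 0.21 (SE 0.027, adjusted p 1.19e-05) and -0.33 (SE 0.04, adjusted p 8.61e-06). After that removal Kdm5b was not called in Female, at 0.049 (adjusted p 0.171), and stayed lower in KD, at -0.31 (adjusted p 8.42e-06). Kdm5c, the X-linked counterpart of Kdm5d, was at 221, 242 and 236 CPM in the Female samples, 175, 173 and 173 in the Male, 179, 182 and 185 in the WT and 159, 165 and 165 in the KD samples. It was 1.35-fold higher in Female, a log2 fold change of 0.43 (SE 0.029, adjusted p 1.34e-08), and lower in KD by a log2 fold change of -0.16 (SE 0.024, adjusted p 0.000103). The Female libraries spread more than the others, from 221 to 242 CPM, and stayed above all Male libraries. So no other member of the family was higher in KD than in WT.

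**Figure D2:**
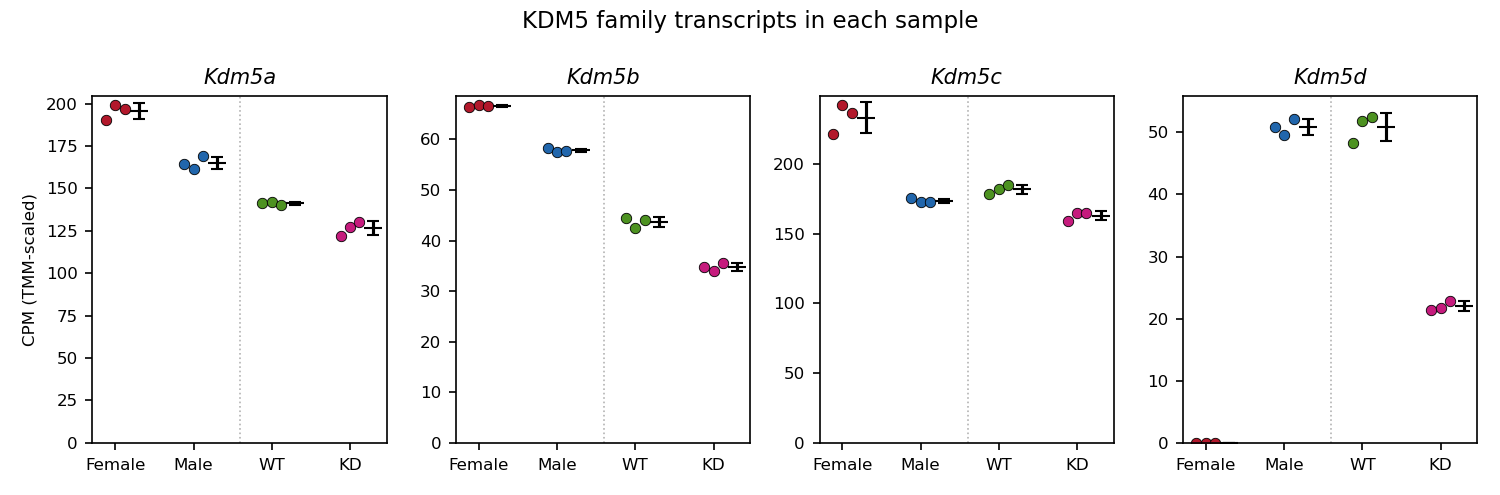
TMM-scaled CPM of the 4 KDM5 genes in each sample, with points for libraries and bars for the mean ± SD of 3, and the dotted line between the separately processed tables. Kdm5a, Kdm5b and Kdm5c are higher in Female than in Male, all 4 genes are lower in KD than in WT, and Kdm5d in KD is at 21.4 to 22.9 CPM.

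Because a longer transcript yields more reads, levels between genes were compared per kilobase of exon. That length took all annotated exons of a gene together, which can exceed the transcript expressed. The order and shares below depend on it. On that scale Kdm5c led the family in every group, at 32.8 ± 1.52 CPM per kb in Female (SD, n = 3), 24.4 ± 0.224 in Male, 25.6 ± 0.449 in WT and 22.9 ± 0.464 in KD. Kdm5a followed at 13.8 ± 0.330, 11.7 ± 0.262, 9.97 ± 0.0733 and 8.94 ± 0.303 CPM per kb. In plain CPM they were closer, with means of 174 (Kdm5c) and 165 (Kdm5a) in Male. Kdm5d, at 3.35 ± 0.0880 CPM per kb in Male, was close to Kdm5b at 3.49 ± 0.0207. In WT it was above Kdm5b (3.36 ± 0.147 against 2.64 ± 0.0640 CPM per kb) and in KD below it (1.45 ± 0.0503 against 2.10 ± 0.0490). Kdm5d made up, on this scale, 7.81% of the summed KDM5 level in Male, 8.08% in WT and 4.10% in KD. The summed level was 50.7 ± 1.86 CPM per kb in Female, 42.9 ± 0.42 in Male, 41.5 ± 0.53 in WT and 35.4 ± 0.80 in KD. Without Kdm5d the sums were 50.7, 39.6, 38.2 and 34.0 CPM per kb. Summed KDM5 transcript was thus higher in Female, which lacks Kdm5d, than in Male, and lower in KD than in WT with or without Kdm5d counted. The sums were not tested, and levels of the separately scaled tables are given side by side only.

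All 4 KDM5 genes were lower in KD, while only Kdm5d was targeted. Whether upstream sequence has a part in this was not tested. Sequence upstream of Kdm5b, Kdm5c and Kdm5d is shown as a description. It is the 250 bases before the RefSeq transcript start (GRCm38.p6, plus strand), at chr1:134559928-134560177, chrX:152232977-152233226 and chrY:897538-897787. RefSeq entries matched 29 of the 41 genes, and Kdm5a was not among them. Capitals mark matches, on either strand, to any of 5 motifs, none of which overlap here. They are the ETS motif CCGGAAG, the GC box GGGCGG, the CCAAT box, the E-box CACGTG and the CRE core TGACGT.
Kdm5b: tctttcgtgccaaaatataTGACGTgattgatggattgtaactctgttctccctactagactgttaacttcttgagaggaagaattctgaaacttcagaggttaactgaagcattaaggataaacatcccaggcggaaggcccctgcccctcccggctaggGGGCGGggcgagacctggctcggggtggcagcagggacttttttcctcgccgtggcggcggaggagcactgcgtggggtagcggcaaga
Kdm5c: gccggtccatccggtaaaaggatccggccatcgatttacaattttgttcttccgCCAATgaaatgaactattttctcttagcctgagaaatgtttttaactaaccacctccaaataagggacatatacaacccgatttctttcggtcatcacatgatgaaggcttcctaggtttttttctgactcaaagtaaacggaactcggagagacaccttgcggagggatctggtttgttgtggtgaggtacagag
Kdm5d: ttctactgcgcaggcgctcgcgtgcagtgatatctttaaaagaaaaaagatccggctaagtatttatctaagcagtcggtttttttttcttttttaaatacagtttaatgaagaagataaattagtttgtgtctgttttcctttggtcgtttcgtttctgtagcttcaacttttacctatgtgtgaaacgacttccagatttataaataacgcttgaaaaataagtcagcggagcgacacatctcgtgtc
The Kdm5b window held the CRE core at -231 and the GC box at -89, counted from the RefSeq transcript start. The Kdm5c window held the CCAAT box at -196, and the Kdm5d window held none of the 5. By the gene positions given above, most of the Kdm5c window, its CCAAT box included, lies within the gene and not upstream of it. The last few bases of the Kdm5b window do so too. Of 32851 upstream windows of that length, 6.47% held the CRE core, 32.7% the GC box, 33.8% the CCAAT box, 6.91% the ETS motif and 6.02% the E-box. GC content was 54.4%, 43.6% and 36.4% for Kdm5b, Kdm5c and Kdm5d, against a median of 52.4%, and CG pairs numbered 13, 10 and 13, against a median of 6. No motif was shared between the 3 windows.

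The H3K27 demethylases remove the mark that Polycomb complexes write. Kdm6a (UTX), which is also a subunit of the KMT2C and KMT2D complexes, was at 138, 139 and 138 CPM in the Female samples, 69.9, 71.6 and 70.9 in the Male, 62.6, 60.5 and 61.1 in the WT and 56.6, 53.5 and 55.8 in the KD samples. Female libraries were all close to 138 CPM, 1.95-fold above Male, with a log2 fold change of 0.97 (SE 0.024, adjusted p 5.49e-14). All KD libraries lay below those of WT, at -0.15 (SE 0.035, adjusted p 0.00284). Its Y-linked relative Uty was at 38.6, 38.3 and 39.5 CPM in the Male samples, 33.5, 32.6 and 31.3 in the WT and 29.4, 27.1 and 31.8 in the KD samples, and had no counts in Female. The WT and KD values of Uty overlapped, and its log2 fold change of -0.14 did not pass the test (adjusted p 0.0591), but did with length and GC trends removed, at -0.15 (adjusted p 0.0154). Per kilobase, Kdm6a and Uty together came to 16.5 CPM per kb in Female, 12.4 in Male, 10.6 in WT and 9.60 in KD, so the summed level was also lower in Male than in Female. Kdm6b (JMJD3), an inducible H3K27 demethylase, was at 80.7, 80.1 and 79.8 CPM in the Female samples, 70.5, 75.6 and 73.9 in the Male, 56.9, 55.2 and 53.0 in the WT and 65.5, 68.4 and 62.6 in the KD samples. It was higher in both comparisons, with log2 fold changes of 0.13 (SE 0.029, adjusted p 0.0015) and 0.25 (SE 0.04, adjusted p 0.000128). The direction in Female turned with length and GC trends removed, to -0.072 (adjusted p 0.0351), while the value in KD was 0.26. No library of Female overlapped Male and none of KD overlapped WT. The KDM6 genes thus changed in opposite directions in KD.

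**Figure D3:**
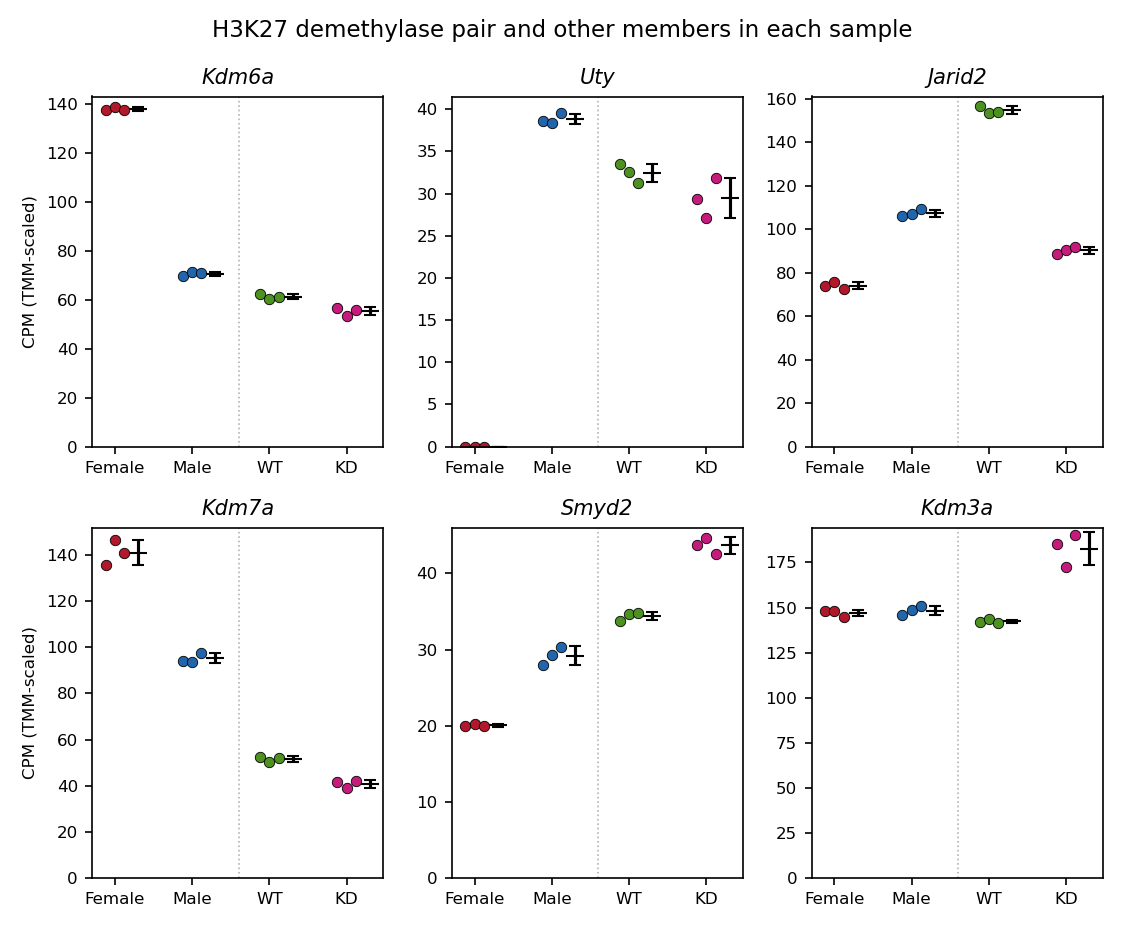
TMM-scaled CPM of Kdm6a, its Y-linked relative Uty, Jarid2, Kdm7a, Smyd2 and Kdm3a in each sample, with points for libraries and bars for the mean ± SD of 3. Kdm6a and Kdm7a are higher in Female and lower in KD, Jarid2 is lower in both, Smyd2 is lower in Female and higher in KD, and Kdm3a differs between WT and KD while its Female and Male values overlap.

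In the LSD1 family, amine oxidases that need a FAD cofactor, the 1 called change was a decrease of Kdm1a in KD. Kdm1a (LSD1), a subunit of the CoREST repressor complex, averaged 109 CPM in Female and 106 in Male, with overlapping libraries and a log2 fold change of 0.033 (adjusted p 0.327). In KD it fell from 83.6 to 75.5 CPM, a log2 fold change of -0.15 (SE 0.034, adjusted p 0.00293). Kdm1b (LSD2) was not called in either comparison, at 0.066 (adjusted p 0.341) and 0.015 (adjusted p 0.836).

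The KDM3 and KDM4 families act mainly on H3K9, and KDM4 also on H3K36. Kdm3a (JMJD1A), a hypoxia-responsive H3K9 demethylase, had the largest increase in KD among the 41 genes. It was at 148, 148 and 145 CPM in the Female samples, 146, 149 and 151 in the Male, 142, 143 and 142 in the WT and 185, 172 and 190.0 in the KD samples. All KD libraries exceeded all WT libraries, 1.28-fold on average, with a log2 fold change of 0.36 (SE 0.032, adjusted p 4.05e-07), whereas Female and Male overlapped at a log2 fold change of -0.014 (adjusted p 0.665). Kdm4a went the other way in KD: it was at 126, 130.4 and 127 CPM in the Female samples, 121, 122 and 121 in the Male, 101, 102 and 102 in the WT and 73.8, 78.1 and 74.9 in the KD samples. Its decrease in KD, -0.43 (SE 0.03, adjusted p 2.33e-08) on the log2 scale, was the third largest of the 41, and its increase in Female was small, 0.08 (SE 0.023, adjusted p 0.0104), and not called with length and GC trends removed, at 0.0032 (adjusted p 0.924). Jmjd1c, a relative of Kdm3a, was at 199, 205 and 207 CPM in the Female samples, 165, 164 and 167 in the Male, 125, 123 and 127 in the WT and 119.7, 110.1 and 119 in the KD samples. Its groups were separated in both comparisons, with log2 fold changes of 0.30 (SE 0.022, adjusted p 2e-08) and -0.11 (SE 0.032, adjusted p 0.0126). The second call was lost with upper-quartile factors, at -0.081 (adjusted p 0.0654), and without WT replicate 3, at -0.10 (adjusted p 0.0619), and the first value was 0.14 with length and GC trends removed. Kdm4b, an H3K9 demethylase, was at 49.7, 54.3 and 50.6 CPM in the Female samples, 49.8, 47.0 and 47.2 in the Male, 40.6, 42.2 and 40.3 in the WT and 44.5, 46.2 and 46.9 in the KD samples. KD exceeded WT by a log2 fold change of 0.16 (SE 0.039, adjusted p 0.00408). Female and Male overlapped for Kdm4b, and the call at 0.10 (SE 0.04, adjusted p 0.0458) was lost in 10 of 17 alternative settings. Kdm3b was higher in Female by 0.31 (adjusted p 1.49e-08) and was not called in KD, at -0.054 (adjusted p 0.152). Kdm4c was lower in KD, at -0.16 (adjusted p 0.00343), and was not called between the sexes, at 0.067 (adjusted p 0.108).

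KDM2 proteins demethylate H3K36 and bind CpG islands through a CXXC domain. Kdm2b, which recruits a variant Polycomb complex to such islands, was at 78.2, 78.8 and 79.4 CPM in the Female samples, 51.4, 47.6 and 49.4 in the Male, 39.8, 40.96 and 40.4 in the WT and 39.7, 42.5 and 40.3 in the KD samples. The Female libraries were 1.59-fold higher than Male and did not overlap them, with a log2 fold change of 0.67 (SE 0.032, adjusted p 1e-10), the second largest after Kdm6a among the increases. In KD the value was 0.015 (adjusted p 0.824), with overlapping libraries. More than 10% of the 31-base subsequences of Kdm2b also occur in transcripts of other genes, so some of its reads may have been counted elsewhere. Kdm2a was at 275, 286 and 285 CPM in the Female samples, 223, 224 and 216 in the Male, 228, 230.1 and 227 in the WT and 217, 223 and 224 in the KD samples. It rose in Female by 0.35 (SE 0.023, adjusted p 4.33e-09), and although every KD library lay below every WT library, the change of -0.045 (adjusted p 0.115) missed the threshold. Kdm8 (JMJD5), a Jumonji protein reported to act as a hydroxylase and on histone tails, had the lowest CPM of the 41 in Male and in WT. It was at 10.2, 10.4 and 10.7 CPM in the Female samples, 12.9, 12.1 and 11.4 in the Male, 15.7, 15.3 and 16.0 in the WT and 13.5, 13.8 and 14.5 in the KD samples. It was lower in both comparisons, -0.22 (SE 0.071, adjusted p 0.0167) in Female and -0.17 (SE 0.058, adjusted p 0.0357) in KD. The second call was lost in 9 of 17 alternative settings and the first in 4.

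The KDM7 family demethylates H3K9, H3K27 and H4K20 and docks on trimethylated H3K4 through a PHD finger. All 3 genes were higher in Female. So were 26.6% of all genes tested and 41.5% of those at or above the lowest mean level among the 41 genes. Kdm7a was at 136, 146 and 141 CPM in the Female samples, 94.3, 93.8 and 97.7 in the Male, 52.5, 50.1 and 51.9 in the WT and 41.4, 38.9 and 41.9 in the KD samples. Its log2 fold change was 0.57 (SE 0.03, adjusted p 3.05e-10) in Female and -0.34 (SE 0.04, adjusted p 6.8e-06) in KD, with fully separated groups in both comparisons. Phf2 was at 160.5, 162 and 165 CPM in the Female samples, 114, 119 and 113 in the Male, 111, 107 and 107 in the WT and 110.2, 115 and 107 in the KD samples. It rose in Female by 0.49 (SE 0.025, adjusted p 1.95e-10) and did not pass the test in KD, at 0.033 (adjusted p 0.465). X-linked Phf8 was higher in Female by 0.32 (adjusted p 1.24e-07) and was not called in KD, at -0.069 (adjusted p 0.153).

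Jarid2, a Jumonji protein without demethylase activity that serves as a subunit of Polycomb repressive complex 2 (PRC2), had the largest decrease in KD after Kdm5d. It was at 73.9, 75.6 and 72.4 CPM in the Female samples, 106, 107 and 109 in the Male, 157, 153 and 154 in the WT and 88.6, 90.6 and 91.9 in the KD samples. The Female and KD libraries sat below their comparison groups with no overlap, at log2 fold changes of -0.54 (SE 0.026, adjusted p 1.33e-10) and -0.78 (SE 0.026, adjusted p 5.64e-12). The decrease was 1.45-fold in Female and 1.71-fold in KD. Jmjd6, a lysyl hydroxylase linked to splicing, was at 38.9, 35.6 and 37.7 CPM in the Female samples, 49.6, 47.9 and 46.3 in the Male, 54.3, 55.7 and 55.9 in the WT and 60.3, 60.7 and 59.7 in the KD samples. It was lower in Female, at -0.36 (SE 0.042, adjusted p 3.01e-06), and higher in KD by 0.12 (SE 0.032, adjusted p 0.00709), each with separated groups.

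Of the 6 catalytic subunits of COMPASS-type complexes, 3 were higher in Female and 3 were not called, while 5 were lower and 1 higher in KD. Of all genes at or above the lowest mean level among the 41 genes, 41.5% were higher in Female. In KD 35.3% of such genes were lower and 25.5% higher. These 6 subunits lay well above that floor, so it is not a set matched to them in abundance. Kmt2a (MLL1), which maintains Hox gene expression, was at 369, 446 and 416 CPM in the Female samples, 279, 287 and 276 in the Male, 255, 253 and 253 in the WT and 235, 233 and 236 in the KD samples. Female exceeded Male by 0.55 (SE 0.079, adjusted p 0.00446) and KD was below WT, at -0.11 (SE 0.02, adjusted p 0.000307). The decrease of Kmt2a in KD was not called when all 12 samples shared one fit, at -0.11 (adjusted p 0.154). Kmt2c (MLL3), an enhancer H3K4 monomethyltransferase, was at 235, 258 and 256 CPM in the Female samples, 173, 178 and 178 in the Male, 157, 166 and 157 in the WT and 142, 136 and 136 in the KD samples. Both changes were clear of overlap, 0.50 (SE 0.031, adjusted p 1.24e-08) and -0.21 (SE 0.028, adjusted p 2.36e-05). Kmt2d (MLL4), its close relative, was at 576, 715 and 653 CPM in the Female samples, 552, 562 and 562 in the Male, 636, 646 and 648 in the WT and 554, 585 and 558 in the KD samples. Female replicate 1 was the lowest Female library for both Kmt2a and Kmt2d. The Female values of Kmt2d all exceeded the Male values, but the change of 0.21 (adjusted p 0.124) missed the threshold, and without Female replicate 1 it was 0.30 (adjusted p 0.000195). In KD Kmt2d fell, at -0.19 (SE 0.021, adjusted p 4.65e-06), a call not reached with all 12 samples in one fit, at -0.19 (adjusted p 0.058). Kmt2b (MLL2), which acts at bivalent promoters, was lower in KD, at -0.094 (adjusted p 0.0118), and not called in Female, at -0.039 (adjusted p 0.216). Its call in KD was lost in 3 of 17 alternative settings: with upper-quartile factors, at -0.064 (adjusted p 0.0745), without WT replicate 2, at -0.084 (adjusted p 0.0635), and without KD replicate 1, at -0.066 (adjusted p 0.0673).

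The SETD1 enzymes deposit most promoter H3K4 trimethylation. Setd1b was at 133, 146 and 144 CPM in the Female samples, 109.8, 111 and 114 in the Male, 139, 136 and 136 in the WT and 124, 129 and 123 in the KD samples, higher in Female by 0.34 (SE 0.032, adjusted p 3.73e-07) and lower in KD, at -0.13 (SE 0.026, adjusted p 0.000883). The increase in Female was 0.098 (adjusted p 0.0097) with length and GC trends removed. Setd1a was the 1 catalytic subunit that rose in KD, by 0.24 (SE 0.033, adjusted p 3.42e-05), from a mean of 112 to 132 CPM, while its change in Female was 0.011 (adjusted p 0.736). Of the 31-base subsequences of Setd1a, 51.8% also occur in transcripts of other genes, so its counts are uncertain. Wdr82, the subunit that ties SETD1 complexes to initiating RNA polymerase II, was at 431, 428 and 434 CPM in the Female samples, 303, 297 and 294 in the Male, 236, 238 and 242 in the WT and 230.5, 227 and 231 in the KD samples. The Female libraries stood clear of Male at a log2 fold change of 0.53 (SE 0.019, adjusted p 2.98e-12). The decrease in KD was slight, -0.057 (SE 0.021, adjusted p 0.0437), and was lost in 12 of 17 alternative settings.

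Of the 4 shared core subunits, 1 was higher and 1 lower in Female, and 1 was higher in KD. Of all genes tested, 26.6% were higher and 23.8% lower in Female, and 17.4% were higher in KD. Wdr5, which binds the enzymes directly, was lower in Female, at -0.16 (adjusted p 0.000196), and Rbbp5 was higher by 0.082 (adjusted p 0.0118). Ash2l and Dpy30 were not called in Female, at 0.031 (adjusted p 0.356) and 0.12 (adjusted p 0.0618). In KD, Dpy30 rose by 0.19 (adjusted p 0.00567), and Wdr5, Rbbp5 and Ash2l were not called, at -0.044 (adjusted p 0.24), 0.10 (adjusted p 0.0587) and 0.026 (adjusted p 0.613). Rbbp5 was called higher in KD in 9 of 17 alternative settings. Among subunits of particular complexes, Men1 (menin), which joins Kmt2a and Kmt2b to chromatin, fell in Female, at -0.31 (adjusted p 6.72e-08), and Cxxc1 (CFP1), the CpG-binding subunit of SETD1 complexes, rose by 0.10 (adjusted p 0.0086). Neither was called in KD, at -0.023 (adjusted p 0.675) and 0.028 (adjusted p 0.58). The X-linked Hcfc1 was not called in either comparison, at -0.041 (adjusted p 0.377) and -0.05 (adjusted p 0.0854). Per kilobase of exon, Wdr82 and Hcfc1 held the highest levels of the 41 genes in every group, at 68.0 ± 0.477 and 49.4 ± 2.61 CPM per kb in Female and 47.0 ± 0.670 and 50.8 ± 0.952 in Male. In WT and KD Hcfc1 was at 62.2 ± 0.914 and 60.1 ± 1.65 CPM per kb, and Wdr82 at 37.7 ± 0.516 and 36.2 ± 0.331. Smyd3 was the lowest in Male and WT, at 2.43 ± 0.0239 and 2.12 ± 0.139 CPM per kb, and Kdm5d in KD.

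The 5 other SET domain proteins were all called in both comparisons, against 26.8% of all genes tested in both. That share includes low-count genes, which were called less often. Setd7, a monomethyltransferase of H3K4 and of many non-histone proteins, was at 245, 243 and 241 CPM in the Female samples, 164, 158 and 163 in the Male, 197, 195 and 188 in the WT and 221, 228 and 231 in the KD samples. Smyd3, a methyltransferase of the kinase MAP3K2 that was also reported on H3K4, was at 30.1, 33.7 and 33.5 CPM in the Female samples, 22.0, 22.4 and 22.4 in the Male, 20.8, 19.4 and 18.3 in the WT and 21.6, 23.1 and 25.1 in the KD samples. Both genes were higher in Female without overlap, by 0.59 (SE 0.022, adjusted p 5.07e-12) and 0.54 (SE 0.05, adjusted p 2.03e-07), and higher in KD, by 0.23 (SE 0.025, adjusted p 3.1e-06) and 0.25 (SE 0.063, adjusted p 0.00464). Smyd2, a methyltransferase of H3K36 and of non-histone proteins such as p53, was at 19.96, 20.3 and 19.9 CPM in the Female samples, 27.9, 29.3 and 30.4 in the Male, 33.8, 34.7 and 34.8 in the WT and 43.8, 44.7 and 42.6 in the KD samples. It was 1.46-fold lower in Female, -0.54 (SE 0.047, adjusted p 9.28e-08) on the log2 scale, and 1.27-fold higher in KD, 0.34 (SE 0.039, adjusted p 4.51e-06). Of its 31-base subsequences 26.8% also occur in an antisense gene, and the strand setting of the counting is not given in the sources used here, so its reads may be shared with that gene. Kmt2e (MLL5), which binds trimethylated H3K4 and has little enzyme activity, was at 223, 222 and 227 CPM in the Female samples, 185, 189 and 185 in the Male, 172, 170.3 and 163 in the WT and 137, 138 and 143 in the KD samples. It rose in Female by 0.27 (SE 0.021, adjusted p 3.22e-08) and fell in KD, at -0.27 (SE 0.027, adjusted p 1.06e-06). Ash1l, an H3K36 methyltransferase, was at 99.7, 111 and 107 CPM in the Female samples, 97.3, 90.0 and 94.9 in the Male, 75.1, 73.1 and 71.4 in the WT and 80.2, 79.6 and 78.5 in the KD samples. Its changes were 0.17 (SE 0.04, adjusted p 0.00346) in Female and 0.12 (SE 0.03, adjusted p 0.00647) in KD, both upward. The first call was lost with length and GC trends removed, at 0.025 (adjusted p 0.571), and the second without WT replicate 3, at 0.098 (adjusted p 0.0538).

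Set side by side, the comparisons often gave opposite signs. Of the 22 genes called in both, 14 changed in opposite directions and 8 in the same direction (36.4%). Over all genes, 5243 (26.8% of the 19529 tested in both) were called in both, and 55% of these had the same direction. The background for opposite calls was 12.1% of genes tested, for lower in each 7.62% and for higher in each 7.14%. The most frequent pattern, higher in Female and lower in KD, held 12 genes: Kdm5a, Kdm5b, Kdm5c, Jmjd1c, Kdm4a, Kdm6a, Kdm7a, Kmt2a, Kmt2c, Setd1b, Wdr82 and Kmt2e. Over all genes 6.98% had this pattern and 5.09% the reverse. These all-gene shares, and those for opposite and same directions above, include low-count genes, which were called less often. Kdm5b and Kdm4a left it when length and GC trends were removed, and Wdr82 lost its call in KD in 12 of 17 settings. Jmjd6 and Smyd2 were lower in Female and higher in KD. The genes lower in both were Kdm5d, Jarid2 and Kdm8, and those higher in both were Kdm4b, Kdm6b, Ash1l, Setd7 and Smyd3. After the same removal Setd7 (0.47 in Female, 0.25 in KD) and Smyd3 (0.44, 0.27) kept both calls, whereas Kdm4b, Kdm6b and Ash1l were no longer higher in Female.

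The difference between the comparisons was tested directly in one fit of all 12 samples, as the change in KD minus the change in Female. It was called for 29 of the 41 genes, 23 below zero and 6 above, against 41.7% of 21500 genes tested, low-count ones included (22.9% below, 18.8% above). The 2066 genes at least as long as the median of the 41 had a median difference of -0.16, against 0.025 over all genes. With length and GC trends removed the difference was called for 32 of the 41 genes, 20 below zero and 12 above, against 40.6% of all genes (20.4% below, 20.2% above). The autosomal genes with large differences included Kdm7a, at -0.93 (SE 0.048, adjusted p 5.37e-12), Kmt2c, at -0.74 (SE 0.046, adjusted p 1.02e-10), and Smyd2, at 0.86 (SE 0.056, adjusted p 1.42e-10). For Kdm5a and Kdm5b the difference was -0.42 (SE 0.037, adjusted p 1.4e-08) and -0.56 (SE 0.044, adjusted p 2.77e-09). Jarid2 fell in both comparisons, and by more in KD, with a difference of -0.26 (SE 0.035, adjusted p 4.57e-06). Its values were closer with length and GC trends removed, -0.65 in Female and -0.75 in KD, with a difference of -0.11 (adjusted p 0.0105). Setd7, although higher in both, also differed, at -0.38 (SE 0.033, adjusted p 1.02e-08), since its increase was larger in Female. For Kdm4b, Kdm6b and Kdm8 the difference did not pass the test, at 0.037 (adjusted p 0.648), 0.10 (adjusted p 0.138) and 0.034 (adjusted p 0.803). In the fit without those trends the first 2 passed, at 0.20 (adjusted p 0.00841) and 0.32 (adjusted p 8.57e-06), while Kdm1a, Kmt2d and Smyd3 no longer did, at -0.096 (adjusted p 0.0802), -0.12 (adjusted p 0.273) and -0.18 (adjusted p 0.0912). The comparisons came from separate batches of cells and separate tables, so batch and comparison cannot be told apart in this difference.

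**Figure D4:**
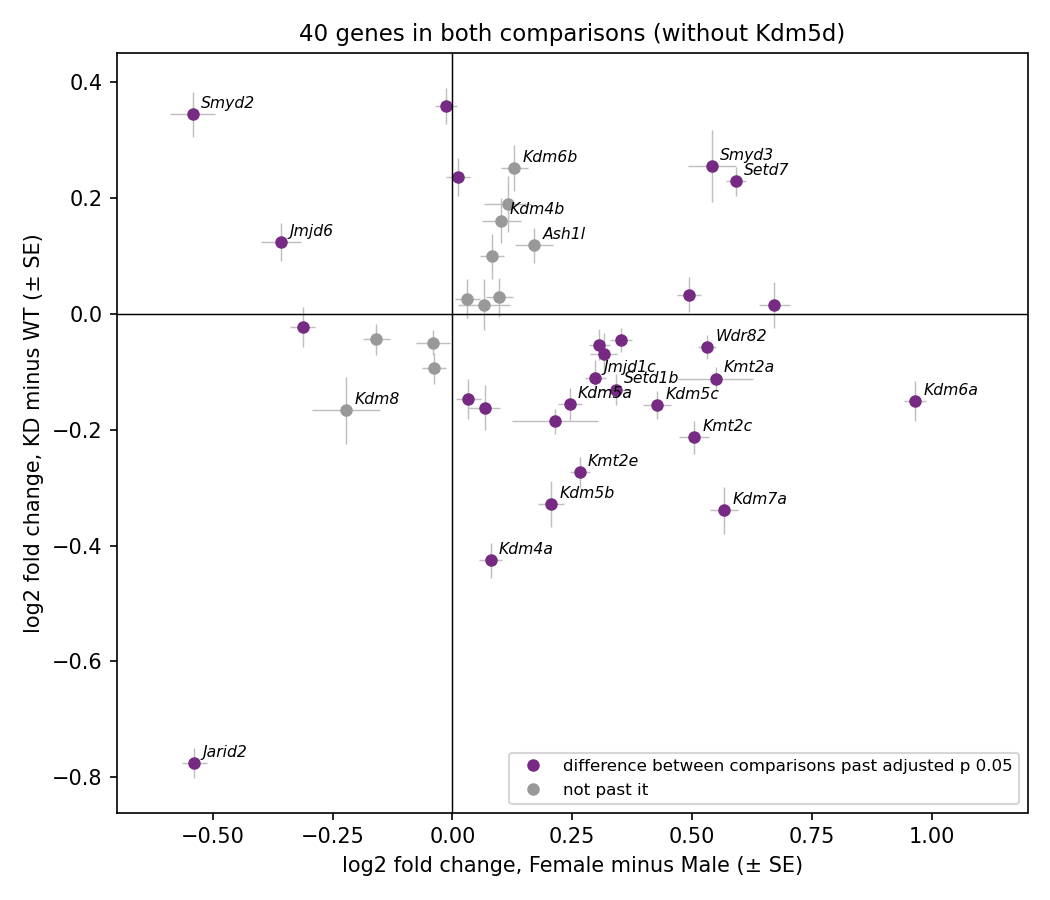
Log2 fold change of 40 genes (all but Kdm5d) in Female over Male (horizontal) and KD over WT (vertical), with bars for ± SE and 3 samples a group. Genes called in both are named, and purple points passed the test of the difference between the comparisons. The lower right field, higher in Female and lower in KD, holds 12 named genes, and Jarid2 lies farthest to the lower left.

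Many of these genes are long, and transcript length moved with the sex comparison. The median exon length of the 41 genes was 8383 bp. The 2008 tested genes at least that long had a median log2 fold change of 0.14 between Female and Male, as large as that of the 41 genes (0.13). In the knockdown the median of 2010 such genes was -0.011, against -0.054 for the 41. After trends with length and GC content were removed from each sample, the median of the 41 became 0.025 in Female and -0.027 in KD. The number called stayed at 31 in Female and went from 29 to 28 in KD, but the split in Female moved from 24 higher and 7 lower to 19 higher and 12 lower. In KD it was 11 higher and 17 lower. Of all genes, low-count ones included, 50% were called in Female with the trends removed (25.1% higher, 24.9% lower). In KD 36.9% were called (18.5% higher, 18.4% lower). Besides Kdm5b, Kdm4a and Ash1l, the genes no longer called in Female were Cxxc1, at 0.0041 (adjusted p 0.918), and Kdm4b, at -0.034 (adjusted p 0.538). Kmt2b, Kdm3a, Setd1a and Hcfc1 became lower in Female, at -0.26 (adjusted p 1.82e-07), -0.10 (adjusted p 0.00203), -0.13 (adjusted p 0.000425) and -0.15 (adjusted p 0.00109). Dpy30 became higher, at 0.26 (adjusted p 0.000435). Kdm5a and Kdm5c kept their calls in Female at 0.11 and 0.33, as did Kdm6a at 0.89, Jarid2 at -0.65 and Kmt2a at 0.37. Calls that were kept with values over 1.5 times smaller were those of Kdm5a, Jmjd1c, Setd1b, Kdm3b (0.14), Kdm2a (0.20), Phf8 (0.20), Kmt2c (0.33) and Kmt2e (0.15). In KD, Kdm8 and Wdr82 lost their calls and Rbbp5 gained one, at 0.11 (adjusted p 0.0291), while the 4 KDM5 genes stayed lower, with Kdm5b at -0.31. With the trends removed, 21 genes were called in both comparisons and 14 of them had opposite directions. Of these, 11 were among the 14 found without the removal. Kdm5b, Kdm4a and Wdr82 were no longer among them, and Kdm3a, Kdm6b and Setd1a were. The share of all genes with opposite directions was not computed with the trends removed, so these 14 have no background beside them.

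**Figure D5:**
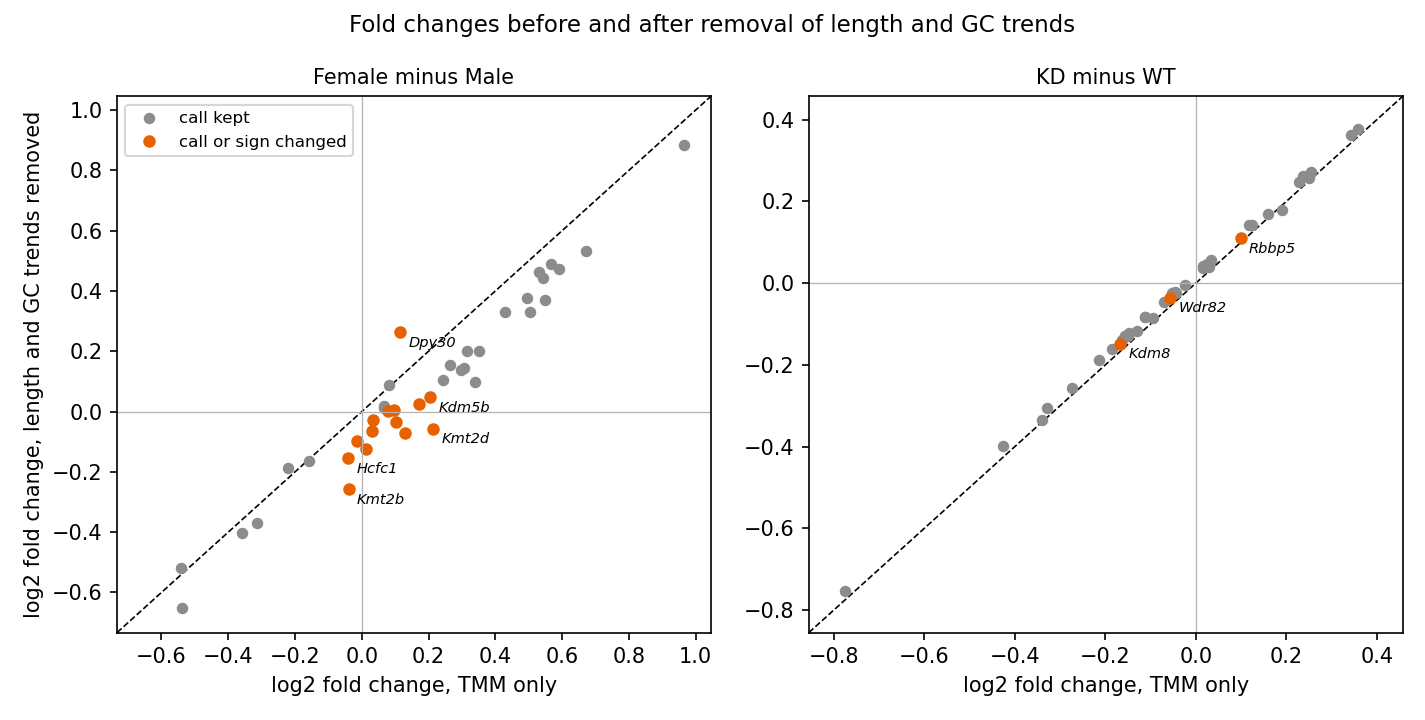
Log2 fold changes of 40 genes (all but Kdm5d) with TMM scaling only (horizontal) and after removal of length and GC trends (vertical), for Female over Male (left) and KD over WT (right), each point 1 gene and the dashed line marking equal values. Orange points changed call or sign. On the left most points lie below the line, with the median going from 0.15 to 0.037, and on the right they follow it.

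Partners of these enzymes were examined from lists that were not part of the 41. Their counts stand against all-gene shares of 26.6% higher and 23.8% lower in Female and 17.4% higher and 19% lower in KD. Of 9 partners of KDM5 proteins in repressor complexes, 3 were higher and 4 lower in Female, with a median log2 fold change of -0.054, and 3 were higher and 2 lower in KD, with a median of 0.066. With length and GC trends removed, 2 were higher and 5 lower in Female and 5 higher and 2 lower in KD. The histone deacetylase Hdac1 fell in both, at -0.39 (SE 0.024, adjusted p 2.05e-09) in Female and -0.25 (SE 0.026, adjusted p 2.22e-06) in KD, and the histone chaperone Rbbp7 fell in Female, at -0.20 (adjusted p 1.19e-06), and rose in KD by 0.24 (adjusted p 2.1e-07). The chromodomain protein Morf4l1 (MRG15) was lower in Female, at -0.26 (adjusted p 8.46e-08). Phf12 and Gatad1 were higher in Female by 0.23 (adjusted p 4.17e-06) and 0.28 (adjusted p 1.67e-05). In KD the scaffold Sin3b was lower, at -0.093 (adjusted p 0.00956), and Rbbp4 higher by 0.15 (adjusted p 1.85e-05).

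Partners of LSD1 all stood higher in Female, with a median log2 fold change of 0.36 and values from 0.24 to 0.88. All 9 were called, against 26.6% of all genes and 41.5% of those at or above the lowest mean level among the 41 genes. With length and GC trends removed, 8 of 9 were called higher, with a median of 0.20, and Rcor2 was not, at 0.11 (adjusted p 0.267). Kdm1a itself was not called in Female. Phf21a (BHC80), which binds unmethylated H3K4, was at 77.4, 77.7 and 76.4 CPM in Female and 41.8, 42.4 and 41.8 in Male, a log2 fold change of 0.88 (SE 0.029, adjusted p 1.3e-12). The CoREST family gene Rcor3 was at 51.6, 50.5 and 50.7 CPM in Female and 27.5, 29.2 and 29.2 in Male, a change of 0.83 (SE 0.038, adjusted p 6.86e-11). Both stood far above Male in every library. In KD the list divided, with 3 higher and 4 lower and a median of -0.025. Rcor3 and Rcor2 were higher there by 0.23 (adjusted p 0.00172) and 0.43 (adjusted p 0.00303), and Rcor1 and Gse1 lower, at -0.15 (adjusted p 0.00177) and -0.25 (adjusted p 6.65e-06). Of 7 further subunits of methyltransferase complexes, 2 were higher and 2 lower in Female (median 0.15), and 3 were higher and 1 lower in KD (median 0.051). With the trends removed these counts were 3 and 3 in Female and 4 and 1 in KD. Ncoa6, the coactivator in KMT2C and KMT2D complexes, and Hcfc2 rose in Female by 0.35 (adjusted p 2.01e-05; 0.22 with the trends removed) and 0.24 (adjusted p 0.000102), and Hcfc2 fell in KD, at -0.37 (SE 0.045, adjusted p 8.8e-06). Paxip1 (PTIP), another subunit of those complexes, was lower in Female, at -0.093 (adjusted p 0.0138; -0.22 with the trends removed), and higher in KD by 0.20 (adjusted p 0.00144). Psip1 (LEDGF), a tether of Kmt2a, was lower in Female, at -0.12 (adjusted p 0.000347). Bod1l, a partner of SETD1A, was higher in KD by 0.13 (adjusted p 0.00624).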

How the data were processed

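For 12 samples, RNA was extracted by a QIAGEN RNeasy protocol and made into stranded libraries after ribosomal depletion, per the labels' protocols. The authors deposited 2 tables of counts, 1 per pair of groups, whose whole numbers were used as raw counts. The submitters' processing notes name bcl2fastq 2.20.0, HISAT2, StringTie, DESeq2 and the build mm10. The counting step, annotation and strand setting are not given in the sources used here. Of 55487 identifiers, 55227 matched GENCODE M21 (GRCm38), the source of symbols, positions and exon lengths.

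Each table was fitted on its own with edgeR 4.0.16 in R 4.3.3 (TMM, filterByExpr, robust quasi-likelihood test, Benjamini-Hochberg over all tested genes, called at adjusted p under 0.05). The SE of a log2 fold change was its size over the square root of F. Depth was 78748647 to 110803318 counts per sample. Within groups, log2 CPM across genes correlated at 0.996 to 0.997. On simulated counts 200 genes were changed by 1 log2 unit. The fit recovered 57% in the sex comparison of 20208 genes and 66.5% in the knockdown of 20413. In the difference between the comparisons, over 21500 genes, it recovered 52.5%. Of the calls 6.56%, 8.90% and 11.8% were false. Far more genes were called in the data: 50.4% in the sex comparison, 36.3% in the knockdown and 41.7% in the difference. The simulated rates therefore do not give the share of changes found, or of false calls, among the listed genes.

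The 41 genes and the partner lists were chosen with earlier results of these data known. Values in every sample were given for the KDM5 genes, for genes called in both comparisons and for the 10 called genes with the smallest p in each. From each other list, up to 2 genes with the smallest p per direction and comparison were named. Other genes named beyond that rule were chosen after their values were seen. Alternatives were DESeq2 1.42.0, limma-voom 3.58.1, DESeq2 or upper-quartile scaling, other low-count filters, a fold minimum of 0.26 (log2), all 12 samples in one fit, a replicate block and leaving out each replicate. Counts divided by 4, and removal of length and GC trends, were chosen after seeing the data. Of the 41 genes, 5 shared over 10% of their 31-base subsequences with other genes (Kdm2b, Kdm3b, Setd1a, Rbbp5 and Smyd2), and 15 overlapped an exon of another gene, so their counts are less certain. No pair of columns was identical.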

Additional observations from a re-analysis of the deposited data

How the results depend on the processing

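Of the 31 genes called between the sexes, 23 kept call and direction in all 17 alternative settings without a fold minimum. So did 22 of the 29 called in the knockdown. The count between the sexes was 29 to 32 without single replicates (6 to 9 lower, 22 to 26 higher), and in the knockdown 25 to 29 (16 to 18 lower, 9 to 11 higher). Genes that differed between the comparisons numbered 29 to 31 without single replicates. With a minimum log2 fold change of 0.26 the count between the sexes was 21, and the knockdown count was 8, with 6 lower and 2 higher. With length and GC trends removed, 12 genes were lower in Female, and 11 with the replicate block added. Those fits reversed Setd1a (-0.125, with the block -0.125), Kdm1a (-0.027, -0.027), Kdm4b (-0.034, -0.035), Kdm6b (-0.072, -0.0714), Kmt2d (-0.057, -0.061) and Ash2l (-0.063, -0.063) in Female. Of these genes only Kdm4b and Kdm6b had been called in Female. The remaining reversals, in other settings, were also of values not called. In Female these were Kdm3a (0.000793 with no filter, 0.0083 with all 12 samples), Setd1a (-0.00782 with a CPM of at least 1) and Hcfc1 (0.0067 without Female replicate 1, with a range without single replicates of -0.077 to 0.0067). In KD they were Men1 (0.0073 with upper-quartile factors), Kdm1b (-0.0084 without WT replicate 2, -0.000333 without KD replicate 1, range -0.0084 to 0.039), Kdm2b (-0.017 without KD replicate 2, range -0.017 to 0.035) and Cxxc1 (-0.0088 without KD replicate 2, range -0.0088 to 0.049). The cause of these changes was not tested. The difference in Kdm5d between KD and WT was -28.9 CPM, and -30.3 to -28.3 without single replicates. Same-numbered samples deviated together in 0 of 6 pairs, with correlations of deviations from group means of -0.075 to 0.031. This check cannot show whether such samples shared mice or cultures. With the replicate block, 30 genes were called between the sexes and 29 in the knockdown. It ended the calls of Kdm4b in Female (adjusted p 0.0662 in edgeR) and of Kdm8 (0.0509) and Wdr82 (0.0619) in KD, and added Rbbp5 (0.0371) and Hcfc1 (0.0496) in KD. What depth limits was not tested.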

Other observations

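Genes that write or read other histone marks, outside the 41, were described from further lists. All-gene shares were 26.6% higher and 23.8% lower in Female and 17.4% higher and 19% lower in KD. Of 9 PRC2 genes, the complex that Jarid2 belongs to, 6 were higher and 1 lower in Female (median log2 fold change 0.23), and 3 were higher and 2 lower in KD (median 0.0085). The catalytic subunit Ezh2 rose in KD, at 124, 119 and 120.2 CPM in WT and 140.2, 143 and 141 in KD, by 0.22 (SE 0.025, adjusted p 4.07e-06) in edgeR's test. All KD libraries lay above all WT libraries. Ezh2 was also higher in Female, by 0.23 (adjusted p 2.12e-07). Epop, an accessory subunit, was lower in Female, at -0.35 (adjusted p 8.38e-06; -0.57 with length and GC trends removed), and higher in KD by 0.50 (adjusted p 1.87e-07). Ezh1 and Aebp2 were higher in Female by 0.61 (adjusted p 5.1e-10) and 0.29 (adjusted p 8e-09). Aebp2 was also higher in KD, by 0.15 (adjusted p 6.22e-05). The accessory subunits Phf19 and Phf1 were lower in KD, at -0.24 (adjusted p 0.00021) and -0.19 (adjusted p 0.0212). The core subunits Eed and Suz12, named after their values were seen, were not called in KD, at 0.0085 (adjusted p 0.888) and -0.01 (adjusted p 0.778).

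Of 14 methyltransferases for H3K9, H3K36 and H3K79, 9 were higher and 4 lower in Female (median 0.15), and 3 were higher and 5 lower in KD (median -0.034). With length and GC trends removed, 6 were higher and 5 lower in Female (median 0.053) and 4 higher and 4 lower in KD. The H3K36 enzymes Setd2 and Nsd3 rose in Female by 0.50 (adjusted p 4.58e-11) and 0.30 (adjusted p 5.62e-10), the latter by 0.15 with the trends removed, and Nsd3 fell in KD, at -0.32 (adjusted p 5.85e-09). Ehmt2 (G9a), the H3K9 dimethyltransferase, fell in KD, at -0.33 (SE 0.022, adjusted p 1.13e-08). Smyd5 was at 25.3, 25.0 and 27.1 CPM in the Female samples, 34.5, 33.5 and 33.8 in the Male, 35.6, 37.2 and 38.3 in the WT and 55.0, 60.7 and 57.6 in the KD samples. It was lower in Female, at -0.40 (SE 0.044, adjusted p 1.77e-06), and higher in KD by 0.64 (SE 0.044, adjusted p 1.8e-08), the directions Smyd2 also took. Setdb2 was lower in Female, at -0.14 (adjusted p 0.00886), and Suv39h1 higher in KD by 0.19 (adjusted p 3.25e-05). Of the H4K20 methyltransferases, Kmt5b and Kmt5c were higher in Female by 0.15 (adjusted p 0.00296) and 0.41 (adjusted p 1.43e-07) and Kmt5a lower, at -0.11 (adjusted p 0.00769). With the trends removed Kmt5b was not called, at 0.0068 (adjusted p 0.912), and Kmt5a was at -0.17. In KD these 3 genes were not called, at 0.023 (adjusted p 0.665), 0.12 (adjusted p 0.0609) and 0.0002 (adjusted p 0.996).

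Among 11 other JmjC-domain genes, 5 were higher and 1, Uty, lower in Female, and 2 were higher in KD. Hspbap1 rose in Female by 1.204 (adjusted p 5.32e-09) and Hif1an, the hydroxylase that restrains HIF, by 0.37 (adjusted p 1.61e-08). Riox1 rose in KD by 0.20 (adjusted p 0.00175), and Hr, at under 1 CPM in every group mean, by 1.07 (adjusted p 0.0338).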
